A study of Mus musculus with 4 samples.

Results

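The small leucine-rich proteoglycans (SLRPs) and their matrix partner dermatopontin were represented by 9 genes, Dcn, Bgn, Aspn, Lum, Fmod, Prelp, Omd, Ogn and Dpt, which were picked by gene symbol from the 25819 rows of the deposited expression table. Expression was measured by RNA-Seq in whole urogenital sinus (UGS), the embryonic tissue from which the prostate arises, of male mice at E16.5 and E18.5. The comparison was between wild type embryos and Tbx18Gfp/Gfp embryos, which are homozygous for a Gfp knock-in that inactivates the gene of the T-box transcription factor TBX18 in every cell, and all mice were bred on a B6C3-F1 hybrid background. RNA of 3 embryos was pooled into 1 library for each genotype and stage, 4 libraries in all. Since each group is a single library, nothing measures the spread between replicates, no test of a difference was made, and differences between libraries are described by their size. The tissue is a mixture of mesenchyme, smooth muscle, epithelium, vessels and other cells, and in such bulk RNA fewer cells of a type and less RNA per cell cannot be told apart.

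SLRPs are secreted proteins built around a horseshoe of leucine-rich repeats, most of which carry chondroitin, dermatan or keratan sulfate chains. They bind collagen fibrils and control how thick the fibrils grow and how they pack, and several of them also bind TGF-beta and other growth factors or their receptors. They are products of fibroblasts and other mesenchymal cells, and are grouped into classes by sequence and gene structure. Dermatopontin has no leucine-rich repeats. It is a small tyrosine-rich matrix protein that binds decorin and promotes collagen fibril formation.

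The values are FPKM, which scale the reads of a gene to its transcript length and to the mapped reads of the library, so levels can be compared between genes. The libraries held an estimated 29100000 to 64000000 mapped reads, with E18.5 wild type the shallowest. That library also stood apart from the rest in its values. The median log2 ratio over all genes was 0.29 for E18.5 Tbx18Gfp/Gfp over wild type and -0.33 for wild type E18.5 over E16.5, against 0.01 for the genotypes at E16.5 and -0.06 for the stages in Tbx18Gfp/Gfp. For the 9 genes, each comparison that uses it is therefore also given relative to that median and, for the genotypes, against E16.5 wild type. Tbx18 itself was measured at 3.47 FPKM in wild type and 2.50 in Tbx18Gfp/Gfp UGS at E16.5, and at 3.16 and 2.93 at E18.5, and such values cannot tell the targeted allele from an intact one. All 8 genes listed for the identity of the tissue were detected, with summed levels of 113.5 to 144.1 FPKM. The 7 cartilage and bone genes in the table summed to 3.04 to 3.95 FPKM and Matn1 was below 0.1 FPKM in every library.

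The class I genes held the 2 highest levels of the 9. Dcn, on chromosome 10 from 96942134 to 96980796 in the coordinates of the deposited table, encodes decorin, which binds collagen I fibrils and TGF-beta. It had 526.9 FPKM in E16.5 wild type, 624.3 in E16.5 Tbx18Gfp/Gfp, 966.6 in E18.5 wild type and 721.6 in E18.5 Tbx18Gfp/Gfp. It ranked 109th, 88th, 35th and 85th of all rows in these libraries, and the E18.5 wild type level was the highest. Bgn, on chromosome X from 70728974 to 70741275, encodes biglycan, the closest relative of decorin and a ligand of Toll-like receptors. Its levels were 189.5, 224.0, 383.1 and 271.4 FPKM in the same order, again highest in E18.5 wild type and lowest in E16.5 wild type. Aspn, on chromosome 13 from 49639812 to 49662934, encodes asporin, which differs from the other class I proteins in an aspartate-rich stretch and binds TGF-beta. Its levels were 47.91, 41.2, 90.49 and 59.65 FPKM, with the lowest in E16.5 Tbx18Gfp/Gfp.

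Among class II genes, Lum stood far above the rest and Omd and Prelp were the lowest of the 9. Lum, on chromosome 10 from 97028135 to 97035337, encodes lumican, the keratan sulfate proteoglycan that spaces the collagen fibrils of the cornea. It had 120.4 FPKM in E16.5 wild type, 162.9 in E16.5 Tbx18Gfp/Gfp, 185.1 in E18.5 wild type and 206.5 in E18.5 Tbx18Gfp/Gfp, and was the only one of the 8 SLRP genes whose deposited level was highest in the E18.5 mutant, although E18.5 wild type was the higher with library sums made equal (log2 ratio -0.27) or with upper quartile scaling (-0.10). Fmod, on chromosome 1 from 135934092 to 135944854, encodes fibromodulin, which shares a collagen binding site with lumican, and had 15.88, 18.65, 24.11 and 19.51 FPKM. Prelp, on chromosome 1 from 135806881 to 135817978, encodes a protein with a basic arginine-rich end that binds heparan sulfate. Its levels were 2.26, 2.17, 5.14 and 4.50 FPKM, so both E18.5 libraries stood above both E16.5 libraries. Omd, on chromosome 13 from 49678116 to 49687978, encodes osteomodulin, known from mineralised matrix, and stayed between 2.48 FPKM in E18.5 Tbx18Gfp/Gfp and 3.48 FPKM in E18.5 wild type, while its E16.5 levels were 2.80 FPKM in wild type and 2.63 in the mutant. An estimated 206 to 365 reads of Omd and 411 to 802 of Prelp stood behind these values.

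Ogn, the class III gene, on chromosome 13 from 49703440 to 49719869, encodes osteoglycin, also called mimecan. Its E16.5 levels were 96.37 FPKM in wild type and 79.0 in Tbx18Gfp/Gfp, those at E18.5 were 148.1 and 112.2 FPKM, and within each stage the mutant library was the lower. Dpt lies on chromosome 1 from 166726863 to 166754397. In the order used above its levels were 18.96, 9.24, 19.47 and 25.51 FPKM. As deposited, its wild type libraries lay close together, and the mutant libraries held both its lowest and its highest level. The order Dcn, Bgn, Lum, Ogn, Aspn was the same in every library, as the plot of the level of each gene shows. Dpt and Fmod changed places between libraries, as did Omd and Prelp at the lower end.

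**Figure D1:**
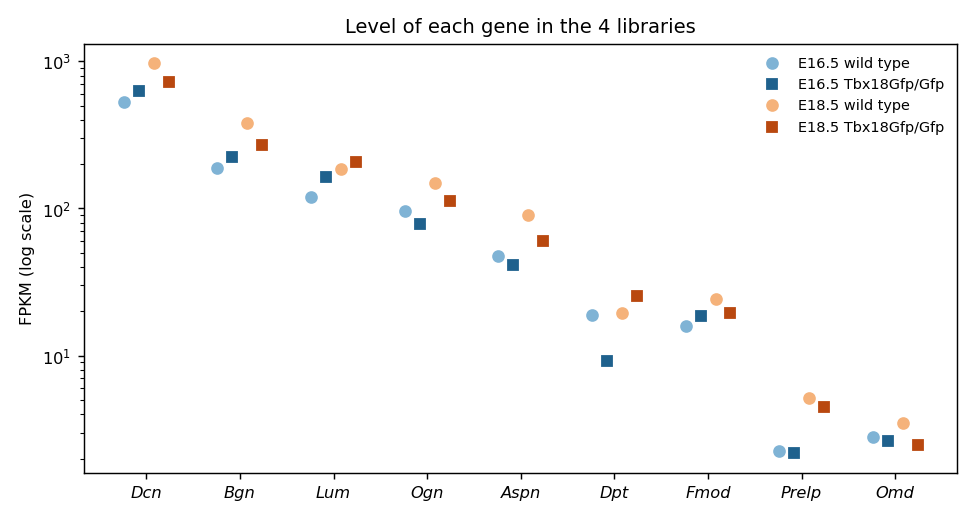
Level of each of the 9 genes (FPKM, log axis) in the 4 libraries, 1 point for each library. Dcn ranges from 526.9 to 966.6 FPKM and Omd from 2.48 to 3.48 FPKM, and for 7 genes the highest point is E18.5 wild type.

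As deposited, the level was highest in E18.5 wild type for 7 of the 9 genes, all but Lum and Dpt, and with library sums made equal for all 9. Of the 15023 genes that reached 1 FPKM in any library, 21.9% had their highest level there as deposited. The share of all genes with library sums made equal, a scaling that raises E18.5 wild type most, was not computed. The spread between the highest and lowest library was smallest for Omd, at 1.40-fold, and largest for Dpt, at 2.76-fold. It was 1.83-fold for Dcn, 2.02-fold for Bgn, 1.72-fold for Lum, 1.52-fold for Fmod, 1.87-fold for Ogn, 2.2-fold for Aspn and 2.37-fold for Prelp. Together the genes made up 0.222% of the summed FPKM of E16.5 wild type, 0.235% of E16.5 Tbx18Gfp/Gfp, 0.486% of E18.5 wild type and 0.282% of E18.5 Tbx18Gfp/Gfp. Dcn alone was 50.7% to 53.6% of the sum of the 9 in every library. The ratio of Dcn to Bgn was nearly flat, at 2.78, 2.79, 2.52 and 2.66. By contrast the ratio of Dcn to Lum was 4.38, 3.83, 5.22 and 3.50, lower in the mutant library at each stage, and that of Dcn to Dpt was 27.8, 67.6, 49.7 and 28.3. The ratio of Dcn to Ogn varied too, at 5.47, 7.9, 6.53 and 6.43. Dcn and Bgn were thus present in near-constant proportion, which did not hold for Lum, Dpt or Ogn. The shares of Aspn (3.54% to 4.96%), Prelp (0.186% to 0.316%) and Omd (0.174% to 0.275%) in the sum of the 9 varied as well.

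RefSeq windows that run from 250 bases before to 50 bases after the annotated start were at hand for 7 of the 9 genes, in build GRCm38.p6. Dcn and Lum had no entry. The 250 bases before the start are shown for 4 genes whose windows hold searched motifs or contrast in base composition: Dpt (chr1:164796413-164796662, + strand), the neighbouring Aspn (chr13:49544193-49544442, + strand) and Ogn (chr13:49607765-49608014, + strand), and Bgn (chrX:73483351-73483600, + strand). Capitals mark matches, on either strand, to AGGTGT (a T-box core site), TATAAA or GGGCGG (an Sp1 box); CAGAC (a SMAD box) and the CArG box of serum response factor were searched too and are not found in these 4.
Dpt: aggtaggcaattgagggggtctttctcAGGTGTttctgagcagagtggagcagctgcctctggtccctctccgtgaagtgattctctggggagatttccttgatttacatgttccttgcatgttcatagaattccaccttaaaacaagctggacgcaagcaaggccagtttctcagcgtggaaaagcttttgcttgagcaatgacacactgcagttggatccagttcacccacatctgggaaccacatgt
Aspn: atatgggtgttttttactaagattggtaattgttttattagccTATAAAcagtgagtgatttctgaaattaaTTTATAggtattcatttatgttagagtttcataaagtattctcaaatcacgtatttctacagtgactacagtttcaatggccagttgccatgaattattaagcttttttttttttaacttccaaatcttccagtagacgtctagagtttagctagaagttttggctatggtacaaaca
Ogn: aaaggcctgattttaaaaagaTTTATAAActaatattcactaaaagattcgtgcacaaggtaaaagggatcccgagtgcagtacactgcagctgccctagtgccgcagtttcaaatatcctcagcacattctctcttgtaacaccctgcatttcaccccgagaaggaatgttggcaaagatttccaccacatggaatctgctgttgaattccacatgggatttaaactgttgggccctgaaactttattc
Bgn: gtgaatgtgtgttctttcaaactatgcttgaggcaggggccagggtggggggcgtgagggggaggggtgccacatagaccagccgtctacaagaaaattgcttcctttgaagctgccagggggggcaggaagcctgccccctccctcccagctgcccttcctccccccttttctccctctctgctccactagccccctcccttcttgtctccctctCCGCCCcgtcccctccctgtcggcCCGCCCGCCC

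The T-box core site AGGTGT lay 223 bases before the Dpt start on its own strand, and 42 bases past the Omd start on the opposite strand. It was present in 13.7% of the 32851 promoter windows of the reference and in 2 of the 7 windows here. TATAAA was in 13.6% of all windows and in those of Dpt (12 bases past the start), Aspn (207 bases before it, and 178 before it on the opposite strand) and Ogn (227 before it, with an overlapping match on the opposite strand at 229). In Bgn, GGGCGG matched 3 times on the opposite strand, at 34, 10 and 6 bases before the start, the last 2 overlapping, and 35.7% of all windows hold this motif. CAGAC was in the Prelp and Fmod windows and in 49.6% of all windows. The CArG box was in 1.63% of all windows and in none of the 7. The Aspn window had the lowest GC content, 31.0%, and the Bgn window the highest, 63.7%, around a median of 52.7% over all windows, with 37.7% for Omd, 42.3% for Ogn, 48.7% for Dpt, 51.0% for Fmod and 55.3% for Prelp.

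In wild type UGS all 9 genes had a higher level at E18.5 than at E16.5, and 7 of them by at least 1.5-fold. Of all 14807 genes that reached 1 FPKM in one library or the other, 6.80% were higher by that much. The 7 were Dcn (1.83-fold), Bgn (2.02-fold), Aspn (1.89-fold), Lum (1.54-fold), Fmod (1.52-fold), Ogn (1.54-fold) and Prelp (2.27-fold). Bgn and Prelp passed 2-fold, as did 2.70% of all genes. Fmod, Lum and Ogn stood just above 1.5-fold. Omd was 1.24-fold higher, a log2 ratio of 0.31 with a 95% interval of 0.06 to 0.56 that covers counting error only. Dpt was level with E16.5, at a log2 ratio of 0.04 with a counting interval of -0.08 to 0.16. The median log2 ratio over the 9 genes was 0.62, where that over all genes was -0.33. Once this shift was taken off, the log2 ratios ran from 0.37 for Dpt to 1.52 for Prelp.

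In Tbx18Gfp/Gfp UGS the ratio of E18.5 to E16.5 was smaller than in wild type for each of the 8 SLRP genes. Only Prelp (2.08-fold) and Dpt (2.76-fold) were at least 1.5-fold higher at E18.5, against 3.00% of 14713 genes, and both passed 2-fold, against 1.35%. The levels of Aspn and Ogn were 1.45-fold and 1.42-fold higher, Lum was 1.27-fold, Bgn 1.21-fold and Dcn 1.16-fold higher. For Fmod, with a log2 ratio of 0.06, and Omd, at -0.09, the counting intervals of -0.01 to 0.14 and -0.33 to 0.16 included 0. Prelp was the 1 gene of the 9 that was about 2-fold higher at E18.5 in both genotypes, and Dpt was so in the mutant but not in wild type. The difference between the genotypes in these stage ratios was not tested. The E18.5 wild type library, which stood apart, enters the wild type ratios only.

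**Figure D2:**
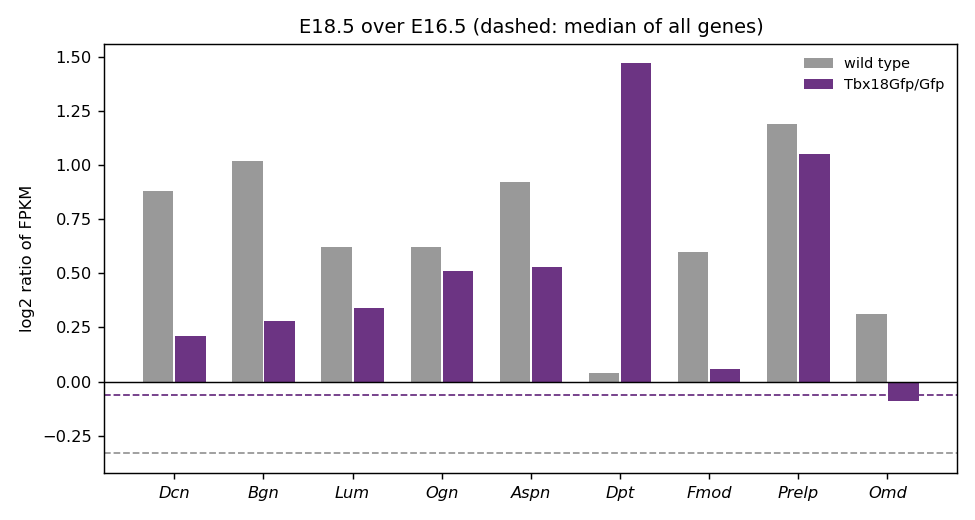
Log2 ratio of E18.5 over E16.5 FPKM for the 9 genes in wild type (grey) and Tbx18Gfp/Gfp (purple), with dashed lines at the median of all genes (-0.33 and -0.06). All wild type bars are above 0, Prelp is above 1 in both genotypes, and Dpt has the tallest mutant bar (1.47) beside a wild type bar of 0.04.

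At E16.5, Dpt was the 1 gene of the 9 that differed by at least 1.5-fold between the genotypes. It was 2.05-fold lower in Tbx18Gfp/Gfp, a log2 ratio of -1.04 with a counting interval of -1.16 to -0.92, from an estimated 1830 reads in wild type and 777 in the mutant. Of 14761 genes, 4.15% differed by 1.5-fold in either direction and 1.17% were at least 2-fold lower. The SLRP genes were within 1.35-fold. Lum was the furthest above wild type, with a log2 ratio of 0.44, followed by Dcn and Bgn, both at 0.24, and Fmod, at 0.23. Ogn (-0.29) and Aspn (-0.22) were lower in the mutant. Omd (-0.09, counting interval -0.31 to 0.14) and Prelp (-0.06, counting interval -0.25 to 0.13) did not differ by more than counting error. The median over the 9 genes was -0.06, against 0.01 over all genes.

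At E18.5, 7 of the 9 genes had lower levels in Tbx18Gfp/Gfp than in wild type, although the median gene of the table was higher in the mutant. Aspn was 1.52-fold lower, a log2 ratio of -0.60 with a counting interval of -0.65 to -0.55, and was the 1 gene past 1.5-fold, as were 7.60% of 14733 genes. None of the 9 was 1.5-fold higher, against 33.2% of all genes. The log2 ratios of the rest were -0.50 for Bgn, -0.49 for Omd, -0.42 for Dcn, -0.40 for Ogn, -0.31 for Fmod and -0.19 for Prelp, while Lum (0.16) and Dpt (0.39) were higher in the mutant as deposited but not with library sums made equal (-0.27 and -0.03). Over the 9 genes the median was -0.40, against 0.29 over all genes. Relative to the latter, 6 of the 9 were at least 1.5-fold lower, Aspn (-0.89), Bgn (-0.79), Omd (-0.78), Dcn (-0.71), Ogn (-0.69) and Fmod (-0.59), against 15.8% of all genes. Prelp then stood at -0.48, Lum at -0.13 and Dpt at 0.10. After subtraction of a lowess trend on length and GC content, Bgn was at -0.97, Fmod at -0.79, Dcn at -0.66, Prelp at -0.65, Aspn at -0.59, Omd at -0.51, Ogn at -0.41, Lum at 0.03 and Dpt at -0.01.

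These E18.5 differences rest on the E18.5 wild type library. With E16.5 wild type in its place, which mixes stage with genotype, 8 of the 9 genes were higher in E18.5 Tbx18Gfp/Gfp. The median log2 ratio over the 9 genes was 0.43, against -0.04 over all genes. Prelp (1.99-fold) and Lum (1.72-fold) then passed 1.5-fold, against 3.06% of 14766 genes. The log2 ratios of the others were 0.52 for Bgn, 0.45 for Dcn, 0.43 for Dpt, 0.32 for Aspn, 0.30 for Fmod, 0.22 for Ogn and -0.18 for Omd. The counting interval of Omd, -0.41 to 0.06, included 0. The E18.5 mutant levels of Dcn, Bgn, Fmod, Aspn, Ogn and Prelp thus lay between those of the wild type libraries of the earlier and the later stage.

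**Figure D3:**
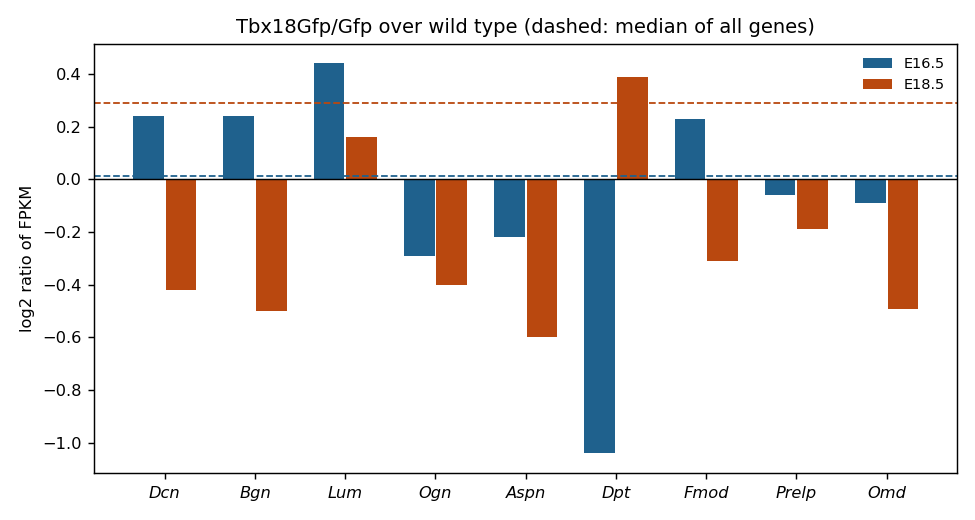
Log2 ratio of Tbx18Gfp/Gfp over wild type FPKM for the 9 genes at E16.5 (blue) and E18.5 (orange), with dashed lines at the median of all genes (0.01 and 0.29). Dcn, Bgn and Fmod are above 0 at E16.5 and below 0 at E18.5, Dpt is at -1.04 and 0.39, and Ogn, Aspn, Prelp and Omd are below 0 at both stages.

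The sign of the genotype ratio differed between the stages for Dcn, Bgn, Fmod and Dpt. The share of all genes for which it did was not computed. Lum was higher in the mutant at both stages, although at E18.5 it stood below the median of all genes. Lower levels in the mutant at both stages were found for Ogn, Aspn, Omd and Prelp, 4 of the 9, against 16.1% of the same 15023 genes, and for Omd and Prelp the E16.5 differences were within counting error. The stages share no library, so these are separate pairs of pools.

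SLRP genes lie in clusters, and 3 of the 4 just named, Aspn, Omd and Ogn, are neighbours on chromosome 13 together with Ecm2, which encodes a matrix protein with leucine-rich repeats. Ecm2 went from 1.64 FPKM in wild type to 1.58 in the mutant at E16.5, and from 2.91 to 1.89 FPKM at the later stage, log2 ratios of -0.06 and -0.62. All 4 genes of that cluster had lower values in the mutant at both stages, but at E16.5 the counting intervals of Ecm2 (-0.29 to 0.17) and Omd included 0. This neighbourhood was singled out after the values were seen, so it is a description only. They lie within the span of Cenpp, a centromere protein gene on the opposite strand, which stood at 6.44 FPKM in wild type and 7.14 in the mutant at E16.5, and at 7.22 and 7.90 at E18.5, log2 ratios of 0.15 and 0.13. Of the 4, Aspn shares 2 exons with Cenpp. The alignment used default options, so reads of the opposite strand cannot be told apart from those of Aspn, whose levels were 41.2 FPKM or more. The Prelp transcript likewise overlaps an antisense gene at 2 exons, and the part of that gene in its low levels was not tested.

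On chromosome 10, Dcn and Lum neighbour Kera (keratocan, of the cornea) and Epyc (epiphycan, of cartilage). Kera had 2.197 FPKM in wild type and 2.02 in the mutant at E16.5, then 6.11 and 2.70 at E18.5, so that it was 2.26-fold lower in the mutant at E18.5. Epyc had 4.14, 3.53, 5.77 and 4.39 FPKM. In both neighbours, as in Dcn, the highest level was that of E18.5 wild type. On chromosome 1, Prelp and Fmod neighbour Optc (opticin, of the eye), which had 1.76, 0.782, 6.87 and 3.88 FPKM from an estimated 188, 72.8, 334 and 340 reads. Optc was lower in the mutant at both stages, with log2 ratios of -1.17 and -0.83. Within the chromosome 10 cluster the ratios did not share a sign at E16.5, where Dcn and Lum were above 0 and Kera and Epyc below.

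**Figure D4:**
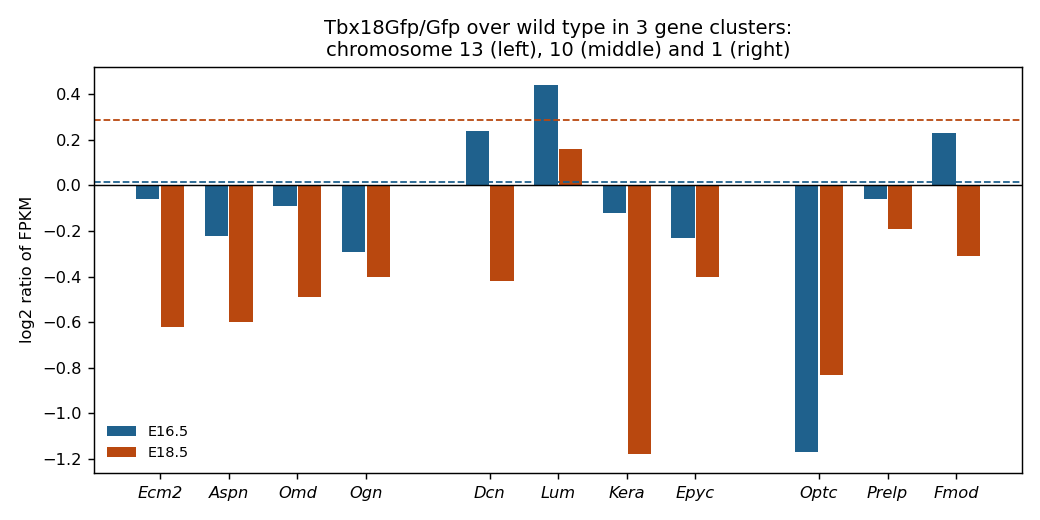
Log2 ratio of Tbx18Gfp/Gfp over wild type FPKM at E16.5 (blue) and E18.5 (orange) for SLRP genes in 3 clusters, in their order within each cluster, with dashed lines at the median of all genes. The 4 genes on chromosome 13 are below 0 at both stages, from -0.06 to -0.62, while on chromosome 10 Dcn and Lum are above 0 at E16.5 and Kera reaches -1.18 at E18.5.

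Of the 10 other SLRP family genes listed, 7 reached 1 FPKM in a compared library. Tsku, which encodes tsukushi, an inhibitor of BMP signalling, was the most abundant, with 15.48, 14.36, 9.56 and 11.17 FPKM, and had its lowest level in E18.5 wild type. In the E16.5 genotype comparison 2 of the 7 were higher and 5 lower in the mutant. Optc was more than 2-fold lower, as were 1.17% of all genes. At E18.5, 3 were higher and 4 lower, with 1 at least 1.5-fold higher and 3 at least 1.5-fold lower. The shares of all genes were 33.2% and 7.60%. The gene past 1.5-fold above was Chadl (chondroadherin-like), at 1.84, 1.99, 0.472 and 1.78 FPKM, for which the E18.5 wild type library was the 1 that stood off. The E18.5 log2 ratio of Chadl was 1.92, and 0.60 with the length and GC trend subtracted. The list median at E18.5 was -0.39, against 0.29 over all genes. Once the shift of all genes was taken off, 1 was higher and 4 were lower by at least 1.5-fold. Of all genes, 15.8% were then lower by that much, and the share higher was not computed. Against E16.5 wild type 2 were at least 1.5-fold higher, as were 3.06% of all genes, and none was lower by that much. Podn had 1.75, 1.82, 2.67 and 2.79 FPKM, with a log2 ratio of 0.06 at each stage.

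Dermatopontin was set beside the marker lists because it was the gene that differed most between the genotypes at E16.5. Its deposited level was lowest in E16.5 Tbx18Gfp/Gfp and highest in E18.5 Tbx18Gfp/Gfp. As deposited, the summed level of 6 smooth muscle genes had the same order of libraries, though with library sums made equal Dpt was highest in E18.5 wild type (E18.5 log2 ratio -0.03). The wild type levels of Dpt differed only within counting error (log2 ratio 0.04, counting interval -0.08 to 0.16), so their order is not settled. The smooth muscle sum was 1128 FPKM in E16.5 wild type, 587.7 in E16.5 Tbx18Gfp/Gfp, 1303 in E18.5 wild type and 3599 in E18.5 Tbx18Gfp/Gfp. All 6 of these genes were lower in the mutant at E16.5 and higher at E18.5. The 6 skeletal muscle genes summed to 718.2, 298.1, 360.6 and 740.1 FPKM and were all lower in the E16.5 mutant, with 3 higher and 3 lower at E18.5. In contrast, the 10 stromal fibroblast genes summed to 732.0, 757.2, 667.8 and 779.8 FPKM, with 6 higher and 4 lower in the mutant at E16.5. Vim made up most of that sum, with 396.7, 387.0, 360.0 and 422.4 FPKM, and other genes of the list differed in direction. Thy1 had 19.94, 28.92, 46.61 and 21.76 FPKM, highest in E18.5 wild type like 7 of the 9 genes, and Pi16 had 7.17, 6.86, 5.44 and 15.75 FPKM. At E16.5 Twist1 was 1.75-fold lower and Dpp4 1.64-fold higher in the mutant. The 3 tendon genes summed to 19.33, 15.35, 11.83 and 14.50 FPKM, and among them Tnmd (tenomodulin) had 2.06, 0.759, 0.682 and 2.21 FPKM. The part of any of these cell types in the levels of Dpt or of the SLRP genes was not tested. Leukocyte genes summed to 19.78 to 24.78 FPKM, endothelial genes to 76.34 to 83.79 FPKM and epithelial genes to 324.2 to 384.6 FPKM.

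**Figure D5:**
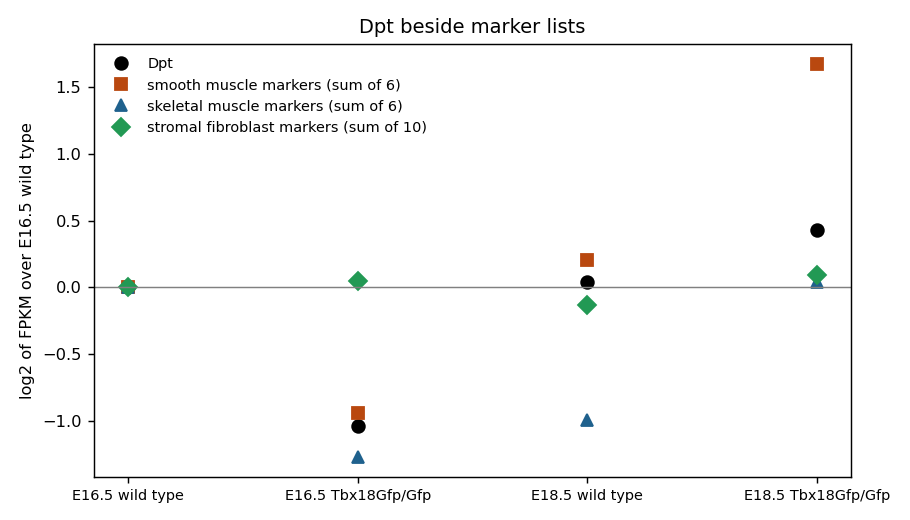
Log2 of the FPKM of Dpt and of the summed FPKM of smooth muscle (6 genes), skeletal muscle (6 genes) and stromal fibroblast (10 genes) markers, each over its value in E16.5 wild type, in the 4 libraries. Dpt and both muscle lists are below 0 in E16.5 Tbx18Gfp/Gfp, where Dpt is at -1.04, and the stromal fibroblast sum, of which Vim is the largest part, stays near 0.

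Col3a1, a fibrillar collagen gene and the most abundant of 19 collagen fibril partners, had 1013, 1037, 826.3 and 1278 FPKM, lowest in E18.5 wild type as deposited. In wild type none of the 19 was higher at E18.5 than at E16.5, but their median log2 ratio of -0.28 was close to the -0.33 of all genes, and relative to the latter 13 were higher and 6 lower. At E18.5, 18 of the 19 were higher in the mutant, 6 by at least 1.5-fold, near the 33.2% of all genes, with a median of 0.35 against 0.29. Relative to the median of all genes 11 were higher and 8 lower, 3 of them at least 1.5-fold higher. The share of all genes higher by that much relative to the median was not computed. Against E16.5 wild type 1 of the 19 was at least 1.5-fold higher in the E18.5 mutant. The ratio of Dcn to Col3a1 was accordingly 0.520, 0.602, 1.17 and 0.565, so that the Dcn level was above that of Col3a1 in E18.5 wild type and below it in the other libraries. The partners past 2-fold at E18.5 were all higher in the mutant: Pcolce (a procollagen C-proteinase enhancer) with 43.06 and 98.55 FPKM in wild type and mutant, Loxl1 (a lysyl oxidase-like enzyme) with 13.84 and 32.66, and Tnxb (tenascin X) with 2.02 and 4.95. With the length and GC trend subtracted, the E18.5 log2 ratios were 0.33 for Pcolce, 0.42 for Loxl1 and 0.80 for Tnxb, so none stayed past 2-fold. At E16.5 none of the 19 reached 1.5-fold and the median was 0.03.

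The enzymes that build glycosaminoglycan chains were followed through 28 genes, of which 26 reached 1 FPKM at E18.5. In the mutant 23 were higher, 9 by at least 1.5-fold, near the 33.2% of all genes, with a median log2 ratio of 0.36 against 0.29. Relative to the median of all genes 15 were higher and 11 lower, with 6 higher and 2 lower by at least 1.5-fold. Of all genes 15.8% were then lower by that much, and the share higher was not computed. Against E16.5 wild type 14 were higher and 12 lower, 1 of them at least 1.5-fold higher, against 3.06% of all genes. Past 2-fold were Xylt2 (4.23 FPKM in wild type and 10.72 in the mutant), which starts the chain, B4galt7 (3.46 and 8.49), which extends the linker, the chondroitin polymerising factors Chpf (6.83 and 25.06) and Chpf2 (2.11 and 9.01), and the sulfotransferase Chst7 (0.313 and 1.04). All 5 had their lowest level in E18.5 wild type, but they were named for being more than 2-fold below the mutant there. With the length and GC trend subtracted, their E18.5 log2 ratios were 0.54, 0.64, 0.93, 1.49 and 0.61 in the order named. Only Chpf2 then stayed past 2-fold. B4galt1, the most abundant of the list, had 38.7, 41.44, 31.21 and 41.59 FPKM, with an E18.5 log2 ratio of 0.41 as deposited. At E16.5 none of the 25 genes that reached 1 FPKM differed by 1.5-fold, with a median of 0.10.

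Of 15 growth factors and receptors that SLRPs bind, 1 was at least 1.5-fold higher and 2 were lower in the mutant at E18.5. The shares of all genes were 33.2% and 7.60%. The median of the 15 was 0.17, against 0.29 over all genes, and at E16.5 none of them reached 1.5-fold. With ratios centred on all genes the counts were 0 and 3, where 15.8% of all genes were lower by that much. The share higher was not computed. Against E16.5 wild type both counts were 0. Bmp4, the most abundant, had 36.57, 38.47, 27.66 and 32.01 FPKM. Among 14 large and cell surface proteoglycans, 4 were at least 1.5-fold higher and 1 lower at E18.5, against 33.2% and 7.60% of all genes, with a median of 0.44 against 0.29. Relative to that median the counts were 3 and 3, where 15.8% of all genes were lower and the share higher was not computed. Against E16.5 wild type the counts were 1 and 0. Gpc3, the most abundant, had 124.7, 148.3, 125.0 and 135.3 FPKM. Sdc1 (17.07 and 38.87 FPKM in wild type and mutant), Gpc1 (14.06 and 36.97) and Cspg4 (2.75 and 7.31) were past 2-fold above wild type, and Srgn, the proteoglycan of blood cell granules, was 2.33-fold below it, with 4.92, 7.88, 20.17 and 8.64 FPKM in the 4 libraries. Srgn was highest in E18.5 wild type, but it was named for being more than 2-fold above the mutant there. With the length and GC trend subtracted, the E18.5 log2 ratios were 0.63 for Sdc1, 0.72 for Gpc1, 0.90 for Cspg4 and -1.46 for Srgn.

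Genes with a pattern like that of each of the 9 were ranked by the distance between log2 profiles over the 4 libraries, after each profile was centred on its mean. Dcn and Bgn were the closest pair among the 9, at a distance of 0.12, followed by Ogn and Aspn at 0.22 and Dcn and Fmod at 0.23, while Dpt was 0.79 to 1.11 from every other. Over all genes the nearest to Dcn were Gpr4 (0.05), LOC100504256 (0.06) and Ifitm3 (0.07), and those to Bgn were Eltd1 (0.08), Gpr4 (0.09) and 5730469M10Rik (0.10). For Lum they were C1ra (0.08), Pi15 (0.09) and Calml4 (0.10), and for Fmod Snhg9 (0.04), Sepp1 (0.05) and Fli1 (0.06). Ogn was followed by Rab27b, Daf2 and 1810019D21Rik (all 0.06), Aspn by Hcfc1r1 and 9530008L14Rik (both 0.07) and LOC100503500 (0.08), and Omd by Ccdc24 and Tacc2 (both 0.02) and Zfp418 (0.03). Prelp and Dpt had no profile as close. The nearest to Prelp were Pla2r1 and Pparg (both 0.18) and S100a1 (0.20), and the nearest to Dpt were Gm10590 (0.19), Prkaa2 (0.22) and Tpm2 (0.30). Gm10590 had 0.932, 0.485, 1.11 and 1.31 FPKM, and Prkaa2 had 2.16, 1.24, 2.39 and 2.99 FPKM. Tpm2, a muscle tropomyosin gene, had 128, 64.0, 141 and 223 FPKM. All of these had the same order of libraries as Dpt as deposited, which their choice by likeness to Dpt makes likely. Only 4 libraries enter these distances, and the ranks depend on the value added before the logarithm.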

How the data were processed

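RNA-Seq libraries from whole UGS of male embryos were made with a stranded kit, 1 library from RNA of 3 pooled embryos for each genotype and stage. The authors trimmed single-end reads with Trimmomatic 0.30 and aligned them with TopHat2 2.1.0 at default options, and Cufflinks 2.2.1 gave the deposited FPKM, per the submitters' processing notes and methods, which also name CASAVA 1.8.2. The genome build is not given in the sources used here. Positions are those of the deposited table, counted from 1, and none of the 9 gene positions is that of GRCm38. Mapped reads were estimated from single-read olfactory receptor genes (10 to 18 for each library). Intervals cover counting error only.

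Ratios were taken over genes that reached 1 FPKM in one library or the other, with a pseudocount of 0.1 for medians of lists, and counted at 1.5-fold and 2-fold. No test was made, since no group has replicates. The 9 genes and the gene lists were chosen with earlier results of these data known. All 9 genes are named, and of each list of related genes its most abundant gene and those past 2-fold between genotypes, with the 3 genes nearest in pattern to each of the 9. Marker lists are given by their sums. Ecm2, Epyc, Podn, Cenpp and single marker genes were chosen after their values were seen. Gene models came from GENCODE and promoter windows from RefSeq. Length and GC content were matched for 83.9% of genes at 1 FPKM or more, and a lowess trend (span 0.3) was the basis of that alternative. Steps were tested on simulated data. Protein sequences were not analysed here. Python 3.11.15 ran statsmodels 0.14.6 for the trend, pandas 2.3.3 and numpy 2.4.6 for the tables, scipy 1.17.1, and matplotlib 3.10.9 for the plots.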

Additional observations from a re-analysis of the deposited data

Results flagged for a closer look

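The genotype ratio had opposite signs at the 2 stages for 4 of the 9 genes, with 1 library for each genotype and stage, and these differences were not tested. The log2 ratio of Tbx18Gfp/Gfp over wild type at E18.5 minus that at E16.5 was -0.67 for Dcn, -0.74 for Bgn, -0.54 for Fmod and 1.43 for Dpt. For Omd the ratio of E18.5 over E16.5 had opposite signs in the genotypes, and the log2 ratio in Tbx18Gfp/Gfp minus that in wild type was -0.40, also not tested. For Dcn, Bgn and Fmod the sign at E18.5 turned with E16.5 wild type in place of E18.5 wild type, to log2 ratios of 0.45, 0.52 and 0.30. As deposited, Dpt had nearly the same level in both wild type libraries, a log2 ratio of 0.04 for E18.5 over E16.5. That ratio was 0.33 with library sums made equal and 0.44 with the length and GC trend subtracted. The E18.5 genotype log2 ratio of Dpt was 0.39 as deposited and 0.43 against E16.5 wild type. It was -0.03 with library sums made equal and -0.01 with the length and GC trend subtracted, where the stages no longer differ in sign.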

How the results depend on the processing

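No paired analysis was possible because the groups compared share a single replicate number and no result comes from a test, and with 1 library in each group no replicate was left out. At E16.5 the signs of the 9 genes held under every alternative (70 of 70 values). The median of -0.06 was -0.16 with library sums made equal and 0.23 with genes under 5 FPKM left out, since Prelp and Omd then drop out. At E18.5, 69 of 80 values kept their sign. The count of genes at least 1.5-fold lower, 1 as deposited, was 7 with library sums made equal, 6 when centred, 5 with upper quartile scaling and 5 with the length and GC trend subtracted, and the median of -0.40 was -0.82, -0.69, -0.66 and -0.59. With E16.5 wild type in place of E18.5 wild type the count was 0, the count higher was 2, the median was 0.43 and Aspn was at 0.32. The remaining sign changes were Lum (-0.27, -0.13 and -0.10 under the 3 scalings) and Dpt (-0.03 with equal sums, -0.01 with the trend subtracted). For wild type E18.5 over E16.5 all 71 values kept their sign. The median of 0.62 was 0.91 with library sums made equal, 0.95 centred, 0.92 with upper quartile scaling, 0.75 from 5 FPKM and 0.83 with the trend subtracted. The count at least 1.5-fold higher, 7 as deposited, was 8 under the 3 scalings and 6 with a pseudocount of 1 or the trend subtracted. For the stages in Tbx18Gfp/Gfp all 70 values kept their sign, and the count at least 1.5-fold higher was 1 in place of 2 from 5 FPKM, where Prelp is left out. The count of genes highest in E18.5 wild type, 7, was 9 with library sums made equal and 8 with upper quartile scaling. The shares of all genes under these scalings were not computed. Of the 27 nearest genes, 21 were shared with a pseudocount of 0.01 and 8 with 1, alternatives chosen after seeing the data. Counting intervals included 0 for Prelp and Omd between genotypes at E16.5, Fmod and Omd between the mutant stages and Dpt between the wild type stages. That of Omd also did so for the E18.5 mutant over E16.5 wild type. The cause of each shift was not tested.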
